A study of Mus musculus with 30 samples.

Results

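Cullin-RING ligases are modular enzymes that mark proteins with ubiquitin for destruction. The 10 genes described here, Dtl, Ddb1, Cul4a, Cul4b, Cul1, Cul3, Skp2, Fbxw7, Rbx1 and Wdr76, were chosen by symbol as ligase genes of the cell cycle. All 10 were found in the deposited table of 46078 genes, where 14707 genes had a fragment in some library. RNA was measured by RNA-seq in C2C12, an established line of mouse myoblasts. The cells were growing in medium with 20% serum, were stained for 15 minutes with Hoechst, a DNA dye, and were sorted by that stain into 3 fractions labelled G1, S and G2-M. All fractions came from untreated growing C2C12 cells, so no group differs from another by genotype or agent, and a fraction is defined by the sort alone. Each fraction had 2 columns of counts. Both titles of the S samples bear the mark lot1, which is on no other title. For comparisons with S, the effect of lot and that of phase cannot be told apart.

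In such a ligase a cullin protein forms the scaffold. One end of the scaffold holds the RING protein Rbx1, which brings in the ubiquitin-conjugating enzyme, and the other end holds an adaptor and an exchangeable receptor that picks the substrate. The Cul4 ligases use the adaptor Ddb1, and their receptor Dtl, also called Cdt2, recognises proteins bound to the replication clamp PCNA on chromatin, such as the licensing factor Cdt1. The Cul1 ligases, called SCF, use F-box receptors, among them Skp2, which targets the kinase inhibitor p27, and Fbxw7, which targets cyclin E and Myc. Cul3 works with receptors that carry a BTB domain, and NEDD8, a relative of ubiquitin, switches cullins on when it is attached to them.

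Columns held between 16109055 and 18103769 fragments. The labels number the columns of a fraction as replicates but say nothing of separate cultures. Per degree of freedom, the chi-square between paired columns came to 1.00 (G1), 1.03 (S) and 1.153 (G2/M), where 1 is pure counting noise. The small excess of the G2/M pair, and more narrowly that of the S pair, was beyond counting noise. At such small differences the columns may be repeat runs of the same library, and each pair was added up and treated as 1 sample. There is thus no replicate check, no p-value is given, and every interval is an exact 95% interval that covers counting error only. Levels are fragments of a gene per 1000000 fragments of a library, after scaling (CPM), and a gene was called when it differed at least 2-fold with at least 10 CPM in 1 of the 2 libraries. In bulk RNA, fewer cells that carry a transcript and less of that transcript per cell cannot be told apart. CPM is also a share of the RNA of a library, and total RNA per cell was not measured. A lower CPM in a fraction therefore need not mean fewer copies per cell. Of the myoblast markers, Myf5 stood at 66.0 CPM in G1 cells, 126 CPM in S cells and 128 CPM in G2/M cells and Des at 311, 213 and 285 CPM in the same order. Myod1 was low, at 6.64, 6.08 and 5.74 CPM, Myog had 80, 0 and 42 fragments, and Pax7 had a fragment in G2/M alone, 119 of them. Of 6 markers of other cell types 5 had 0 fragments in every library, and Pecam1 had 29 fragments, all in G2/M. By counting error alone, 0 fragments allow up to 0.0936 CPM in G1 cells, 0.0837 CPM in S cells and 0.0827 CPM in G2/M cells. Transcripts lost before sequencing are not covered by these limits.

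Among these 10 genes those called were all substrate receptors. They were Dtl, Wdr76 and Fbxw7 in S over G1, Wdr76 in G2/M over S, and Dtl, Wdr76 and Skp2 in G2/M over G1. The share of all genes called in any of these comparisons was not computed, so only the shares per comparison below stand beside them. The scaffolds, the adaptor and the RING subunit differed by at most 1.59-fold in any comparison. The receptors also had lower mean levels in S and G1, where ratios spread more widely. In S over G1, 17.4% of genes at 20 to 50 CPM were called and 8.05% at 50 to 100 CPM. At 100 to 200 CPM it was 3.34%. Of the other F-box, Cul4 and Cul3 receptors listed below, 15.8%, 10% and 15% were called in S over G1. The contrast is thus one of these 10 genes only. Dtl and Wdr76 were highest in G1 and far lower in S and in G2/M, Skp2 was lower in each later fraction, and Fbxw7 was highest in S. In the S library 3 of the 10 genes were at least 2-fold away from G1, 1 higher and 2 lower. Over all 8773 genes tested in that comparison 17.2% were called, 8.63% higher and 8.61% lower. Between G2/M and S, 0 of 10 were 2-fold higher and 1 was 2-fold lower, where 13.7% of all genes were called, 7.13% higher and 6.60% lower. For G2/M over G1, 0 were 2-fold higher and 3 were 2-fold lower, where 19.8% of all genes were called, 10% higher and 9.80% lower. With 10 genes shares of 30%, 10% and 30% differ from these backgrounds by no more than 2 genes, so the counts are no result about the group. The median log2 ratio of the 10 genes was -0.18 in S over G1, 0.01 in G2/M over S and 0.02 in G2/M over G1, beside -0.01, 0.01 and 0.00 over all genes tested.

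**Figure D1:**
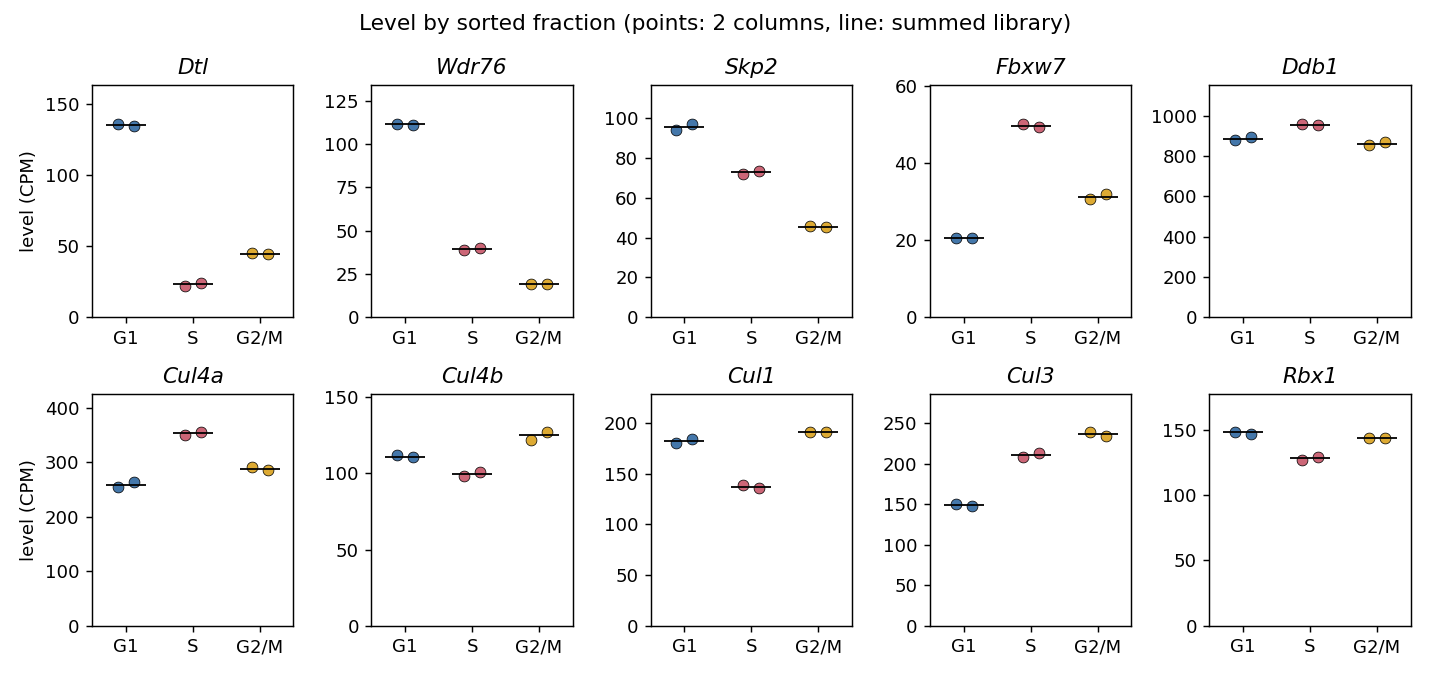
Level in CPM (vertical axes, starting at 0) of the 10 genes in the G1, S and G2/M fractions (horizontal axes). Points are the 2 columns of a fraction and lines the summed library. Dtl and Wdr76 stand highest in G1, Fbxw7 in S, and the columns of a fraction lie close together.

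Dtl lies on chromosome 1 of GRCm38 from 191537356 to 191575544, on the minus strand (ENSMUSG00000037474). Its columns stood at 136 and 134 CPM in G1, 21.9 and 24.0 CPM in S, and 45.1 and 44.0 CPM in G2/M. Both S columns were the lowest and both G1 columns the highest. The columns of a fraction may be the same library, so this order in both is no replicate check. Between S and G1 the log2 ratio was -2.56 (interval -2.67 to -2.45), or 5.88-fold lower in S. G2/M was 3.03-fold below G1 (log2 ratio -1.60, interval -1.68 to -1.52). G2/M was also 1.94-fold above S, a log2 ratio of 0.96 (interval 0.83 to 1.08), just under the 2-fold line, and the first columns alone gave 1.04 and the second columns alone 0.87. These comparisons share libraries and are not independent of each other. Level matters for how unusual a ratio is: among the 1939 genes with a mean of 50 to 100 CPM in S and G1, where Dtl lay, 3.66% were at least 2-fold lower in S and the 5th percentile of the log2 ratio was -0.92.

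Wdr76 lies on chromosome 2 from 121506723 to 121544860 (ENSMUSG00000027242). It encodes a WD40-repeat protein that is counted among the Ddb1-binding receptors of Cul4 ligases in human cells. Its columns stood at 112 and 111 CPM in G1, 38.9 and 39.7 CPM in S, and 19.1 and 18.8 CPM in G2/M. Here the order differed from that of Dtl, with G2/M lowest. The S library was 2.84-fold below G1, with a log2 ratio of -1.51 (interval -1.60 to -1.42), and the G2/M library was 5.89-fold below G1, with a log2 ratio of -2.56 (interval -2.68 to -2.44). Between G2/M and S it was 2.07-fold lower, at -1.05 (interval -1.18 to -0.92), which reaches across the 2-fold line at -1. That ratio lay inside the spread of its level class, 20 to 50 CPM. There 6.85% of genes were at least 2-fold lower in G2/M than in S and the 5th percentile was -1.11. In the 50 to 100 CPM class 3.92% of genes were at least 2-fold lower in G2/M than in G1, and the 5th percentile was -0.94. Per kb of exon, Dtl stood at 0.556 times the level of Wdr76 in G1 cells, 0.269 times in S cells and 1.08 times in G2/M cells. These values rest on annotated exon lengths of 13709 bases for Dtl and 6305 for Wdr76. In CPM, Dtl stood above Wdr76 in G1 (135 against 112) and in G2/M (44.5 against 19.0) and below it in S (23.0 against 39.3).

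**Figure D2:**
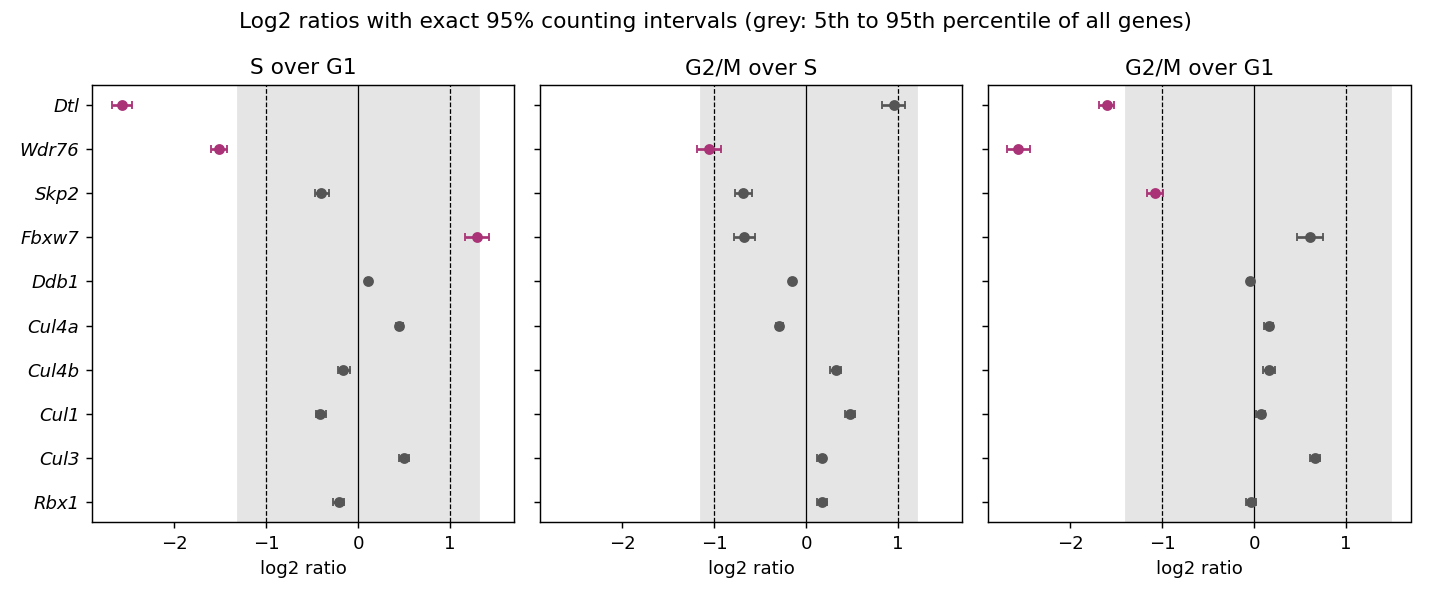
Log2 ratio (horizontal axes) of each gene in S over G1, G2/M over S and G2/M over G1, with exact 95% counting intervals. The grey band runs from the 5th to the 95th percentile of all genes tested, dashed lines mark 2-fold, and coloured points are genes called at 2-fold. Dtl at -2.56 and Wdr76 at -1.51 lie below the grey band in S over G1, while the other 8 lie inside it.

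Sequences before the start sites of Dtl and Wdr76 are shown because their levels differed most, and that of Rbx1 because it shares sequence words with Dtl while its level hardly differed. They are the 250 bases before the start from RefSeq promoters of GRCm38.p6, 5′ to 3′ on the gene's strand, for Dtl chr1:191575545-191575794 (minus strand), for Wdr76 the first of 2 listed starts, chr2:121506473-121506722 (plus strand), and for Rbx1 chr15:81466066-81466315 (plus strand). Capitals mark the E2F words TTTCCCGC, TTTCGCGC, TTTGCCGC and TTTGGCGC and the word CCAAT, each on either strand. E2F factors are known activators of genes needed at the start of DNA synthesis.
Dtl: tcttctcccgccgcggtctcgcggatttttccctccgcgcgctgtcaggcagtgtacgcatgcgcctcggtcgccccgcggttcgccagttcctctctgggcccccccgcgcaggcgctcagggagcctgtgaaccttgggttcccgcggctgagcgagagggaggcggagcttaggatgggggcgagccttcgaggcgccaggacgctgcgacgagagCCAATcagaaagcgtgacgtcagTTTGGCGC
Wdr76: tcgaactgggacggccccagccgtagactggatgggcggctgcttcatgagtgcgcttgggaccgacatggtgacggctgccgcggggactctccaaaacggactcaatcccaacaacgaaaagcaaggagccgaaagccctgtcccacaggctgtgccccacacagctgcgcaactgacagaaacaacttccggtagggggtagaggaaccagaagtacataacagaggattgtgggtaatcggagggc
Rbx1: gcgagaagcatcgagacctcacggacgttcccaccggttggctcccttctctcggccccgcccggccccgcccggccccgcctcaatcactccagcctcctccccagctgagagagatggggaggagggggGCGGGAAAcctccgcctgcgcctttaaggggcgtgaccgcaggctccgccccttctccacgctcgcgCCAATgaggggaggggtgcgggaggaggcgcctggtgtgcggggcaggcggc

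All 10 genes matched the promoter table, with 16 windows of 300 bases that run from 250 before to 50 after a start. An E2F word was found in 2 of the 16 windows, those of Dtl and Rbx1, against 2.26% of all 32851 windows. In Dtl the word ends at the last base before the start, and its CCAAT begins 31 bases before the start. In Rbx1 the E2F word begins 119 bases before the start and lies on the other strand. CCAAT was found in 4 of the 16 windows, in Dtl, Cul4b, Skp2 and Rbx1, against 37.4% of all windows. The word TTTGAA, known from promoters of mitotic genes, was found in 2 windows, one of Skp2 and one of Wdr76, against 17.9%. The Wdr76 match lies in the window of its other listed start, not in the sequence shown. No match overlapped another. These are matches of letters in a window and were not set against any measurement of binding.

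Skp2 lies on chromosome 15 from 9111985 to 9155425 (ENSMUSG00000054115). Its columns stood at 94.4 and 97.4 CPM in G1, 72.2 and 73.6 CPM in S, and 45.7 and 45.2 CPM in G2/M, so that each fraction lay below the one before it. G2/M was 2.11-fold below G1, at a log2 ratio of -1.08 whose interval, -1.16 to -0.99, just crosses the 2-fold line. The steps were smaller, 1.32-fold lower in S than in G1 and 1.6-fold lower in G2/M than in S.

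Fbxw7 lies on chromosome 3 from 84815268 to 84979198 (ENSMUSG00000028086). Its sign was opposite to that of Skp2 in both comparisons with G1 and the same in G2/M over S. Its columns stood at 20.4 and 20.4 CPM in G1, 50.2 and 49.3 CPM in S, and 30.5 and 31.8 CPM in G2/M. Fbxw7 was 2.44-fold higher in S than in G1, with a log2 ratio of 1.29 (interval 1.16 to 1.42). G2/M was 1.59-fold below S and 1.53-fold above G1. It was the gene with fewest fragments, 654 in G1, and of the 2574 genes in its level class, 20 to 50 CPM, 9.05% were at least 2-fold higher in S than in G1, where the 95th percentile was 1.24. The ratio of Fbxw7 therefore lay at about the edge of the spread of its level class. Per kb of exon, Skp2 stood at 4.21 times the level of Fbxw7 in G1 cells, 1.31 times in S cells and 1.30 times in G2/M cells. Antisense exons of a gene without a name in the supplied table cover 1.92% of the exon bases of Fbxw7, and that gene had 0 fragments.

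**Figure D3:**
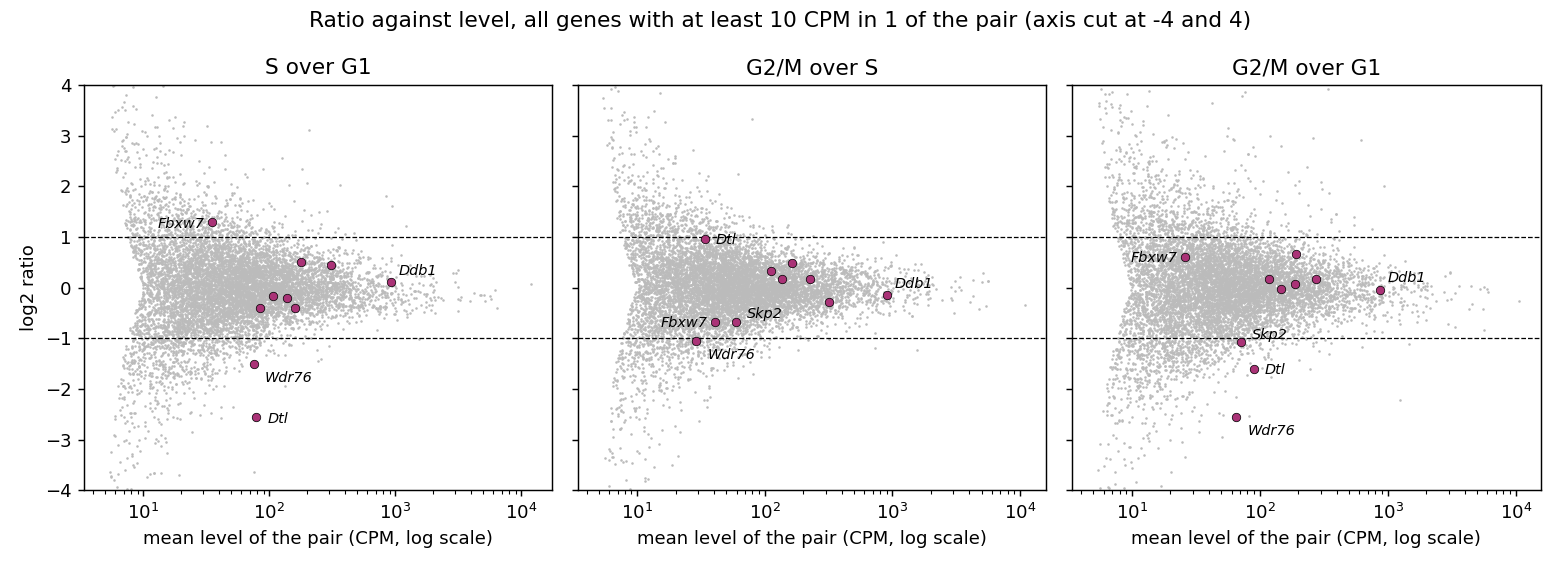
Log2 ratio (vertical axes, cut at -4 and 4) against the mean level of the 2 libraries in CPM (horizontal axes, log scale) for all genes tested, in grey, with the 10 ligase genes as coloured points and dashed lines at 2-fold. Ratios of grey points spread more widely at low levels. Dtl and Wdr76 lie below most genes of their level in S over G1 and in G2/M over G1, and Fbxw7 lies at the upper edge in S over G1.

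The Cul4 core differed little. Ddb1, the adaptor, on chromosome 19 from 10605625 to 10629813, had the highest level of the 10 genes, with 880 and 896 CPM in G1, 963 and 954 CPM in S, and 854 and 869 CPM in G2/M. It was 1.08-fold higher in S than in G1 and 1.11-fold lower in G2/M than in S. Dtl and Ddb1 work in the same ligase, and per kb of exon Ddb1 stood at 21.7 times the level of Dtl in G1 cells, 138 times in S cells and 63.8 times in G2/M cells. These ratios rest on annotated exon lengths of 4155 bases for Ddb1 and 13709 for Dtl.

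The scaffolds Cul4a and Cul4b are close paralogs with overlapping roles, on chromosome 8 from 13105621 to 13147940 and on chromosome X from 38533274 to 38576196. Cul4a stood at 255 and 263 CPM in G1, 351 and 355 CPM in S, and 291 and 286 CPM in G2/M. Cul4b stood at 112 and 111 CPM in G1, 98.4 and 101 CPM in S, and 122 and 127 CPM in G2/M. The paralogs had opposite signs, with Cul4a 1.36-fold higher and Cul4b 1.11-fold lower in S than in G1, and Cul4a 1.22-fold lower and Cul4b 1.25-fold higher in G2/M relative to S. In G2/M against G1 they had the same sign, 1.11-fold higher for Cul4a and 1.12-fold higher for Cul4b. As a share of both per kb of exon, Cul4a made up 58.4% in G1 cells, 68.1% in S cells and 58.3% in G2/M cells. Their sum per kb was 69.1 CPM in G1 cells, 80.8 CPM in S cells and 77.2 CPM in G2/M cells.

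Cul1, the scaffold of SCF, on chromosome 6 from 47453398 to 47526139, stood at 180 and 184 CPM in G1, 139 and 136 CPM in S, and 191 and 191 CPM in G2/M. It was 1.33-fold lower in S than in G1 and stood 1.39-fold above S in G2/M. Exons of A930035D04Rik on the other strand cover 4.73% of its exon bases, but that gene had only 132 fragments over the 3 libraries. Cul3, on chromosome 1 from 80264923 to 80340480, had another order, with 151 and 148 CPM in G1, 209 and 213 CPM in S, and 239 and 234 CPM in G2/M. It was 1.41-fold higher in S than in G1 and 1.59-fold higher in G2/M than in G1, or a log2 ratio of 0.66 (interval 0.61 to 0.72). Among genes with a mean of 100 to 200 CPM the 95th percentile in G2/M over G1 was 0.80, so Cul3 lay inside the spread of its level class.

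Rbx1, the RING subunit that these cullins share, lies on chromosome 15 from 81466316 to 81476369. It stood at 148 and 147 CPM in G1, 127 and 129 CPM in S, and 144 and 144 CPM in G2/M, and its log2 ratio of -0.03 in G2/M over G1 had an interval of -0.09 to 0.02, the only one of the 30 that includes 0. In S it was 1.15-fold below G1. Its pseudogene Rbx1-ps had 2, 3 and 1 fragments in G1, S and G2/M, beside at least 4579 for Rbx1 itself.

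Exon length moved with the ratio in S over G1. For genes with a mean level of 50 CPM or more, the median log2 ratio was -0.18 up to 3465 exon bases, 0.01 up to 6069 and 0.21 above that. Rbx1 has 1655 exon bases, while Dtl with 13709, Skp2 with 7875, Cul4a with 6408 and Wdr76 with 6305 fall in the longest class. Fbxw7 has 7046 exon bases but lay under that level in S and G1 and is in none of the classes. For G2/M over G1 the same medians were -0.12, -0.02 and 0.13, with similar class limits, and for G2/M over S they were 0.05, -0.02 and -0.06. The part of length in these ratios was not tested. In S over G1 the log2 ratio was -2.56 for Dtl, -1.51 for Wdr76, -0.40 for Skp2, 0.45 for Cul4a and -0.21 for Rbx1. For Fbxw7, outside the classes, it was 1.29.

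**Figure D4:**
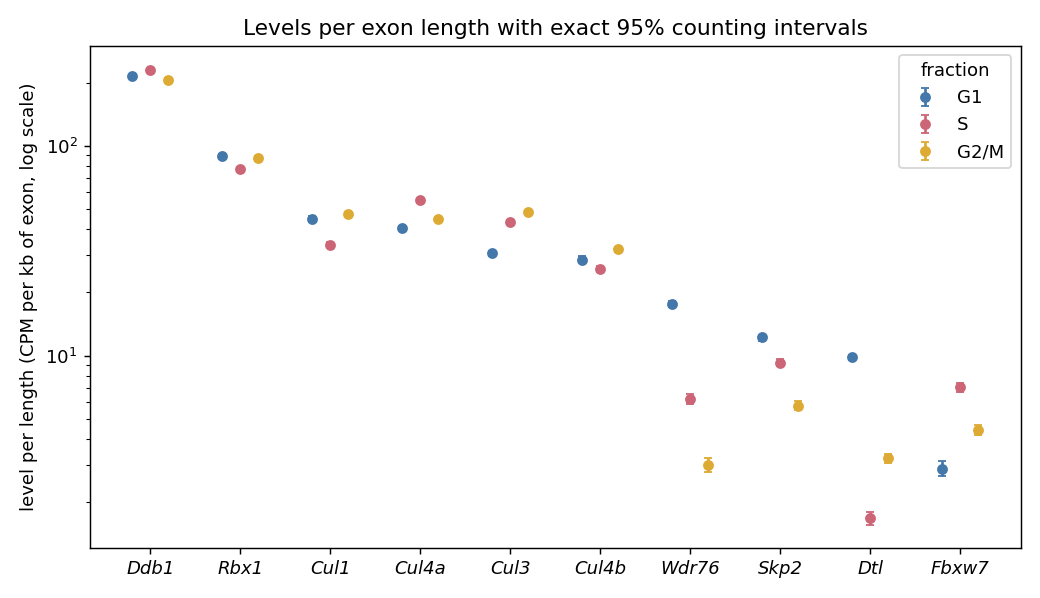
Level per kb of exon (vertical axis, CPM per kb, log scale) of the 10 genes in G1, S and G2/M, with exact 95% counting intervals, ordered by their level in G1. Ddb1 at 207 to 231 and Rbx1 at 77.2 to 89.1 are highest in all 3 fractions, and the receptors Wdr76, Skp2, Dtl and Fbxw7 are lowest.

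Set in order of level per kb of exon, which allows genes to be compared within a library, Ddb1 came first and Rbx1 second in all 3 libraries. In G1 there followed Cul1 at 44.9 CPM per kb, Cul4a, Cul3, Cul4b, Wdr76, Skp2, Dtl and Fbxw7 at 2.89 CPM per kb. In S the order was Cul4a at 55.1 CPM per kb, Cul3, Cul1, Cul4b, Skp2, Fbxw7, Wdr76 and Dtl at 1.68 CPM per kb. In G2/M it was Cul3 at 48.6 CPM per kb, Cul1, Cul4a, Cul4b, Skp2, Fbxw7, Dtl and Wdr76 at 3.01 CPM per kb. The 4 receptors thus took the 4 lowest places in every library. Counting intervals of neighbours overlapped for Cul3 and Cul1 and for Dtl and Wdr76 in G2/M and for no other neighbours. Exon length is the union of all annotated exons, so a gene with long exons that these cells do not use has too low a value on this scale.

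The phase markers were read beside these values. In S against G1, Cdc6 was 12.5-fold lower, Ccne2 5.15-fold lower and Ccne1 3.09-fold lower, and Mcm5 stood at 183 CPM in S against 270 CPM in G1. In G2/M against G1 all 4 of these genes of the G1/S transition were at least 2-fold lower, as were Dtl, Wdr76 and Skp2. Of the 6 markers of later phases, Ccna2, Ccnb1, Cdk1, Plk1, Cdc20 and Ube2c, 3 were past 2-fold in S over G1 and 3 in G2/M over S, all upward. Ccnb1 stood at 74.3 CPM in G1 cells, 242 CPM in S cells and 390 CPM in G2/M cells. How many cells of a neighbouring phase each sorted fraction held was not tested.

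The machinery around the ligases was measured in 7 lists of 126 genes, of which 117 reached the minimum in S or G1. Of these 8 were at least 2-fold higher and 11 at least 2-fold lower in S than in G1, or 16.2%, beside 17.2% of all genes. Between G2/M and S, 7 of 117 were 2-fold higher and 2 were 2-fold lower, or 7.69%, beside 13.7%. For G2/M over G1, 7 of 118 were 2-fold higher and 10 were 2-fold lower, or 14.4%, beside 19.8%.

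Substrates and cofactors of the ligases held 8 of the 11 lower genes of these lists in S against G1. There 8 of 21 measured genes were at least 2-fold lower and 1 was 2-fold higher, beside 8.61% and 8.63% of all genes, with a median log2 ratio of -0.66, beside -0.01 over all genes. Beside Cdc6 and the E cyclins given above, Cdt1, which the Dtl ligase removes in S phase, stood at 15.6 CPM in S against 59.8 CPM in G1, and E2f1, a transcription factor, at 62.3 CPM against 153 CPM. In all, 6 of the 21 were higher in S and 15 lower, at any size of ratio. Wee1, the kinase that restrains Cdk1, was the 1 past 2-fold upward, at 48.9 CPM in S against 17.7 CPM in G1. Pcna, to which Dtl substrates bind, was 2.23-fold lower in S, and Cdkn1a, a kinase inhibitor removed by the Dtl and Skp2 ligases, was 2.27-fold lower. Kmt5a, the histone methyltransferase also removed by the Dtl ligase, stood at 184 CPM in S against 202 CPM in G1. Cdkn1b, which encodes the Skp2 substrate p27, stood at 156 CPM in S against 125 CPM in G1, and the Fbxw7 substrate gene Myc at 42.2 CPM against 48.0 CPM. In G2/M against S 3 of 21 were 2-fold higher and 1 was 2-fold lower, beside 7.13% and 6.60% of all genes, with a median of 0.13. They were Rbl2, a pocket protein, at 42.2 CPM in G2/M against 14 CPM in S, Cdt1 at 37.8 CPM against 15.6 CPM and Cdc6 at 24.2 CPM against 11.2 CPM, while the centriole gene Ccp110 stood at 15.0 CPM against 58.0 CPM. Between G2/M and G1, 7 of 22 were 2-fold lower and 1 was 2-fold higher, beside 9.80% and 10% of all genes, with a median of -0.26. Cdc6 was 5.80-fold, Ccne2 4.11-fold, Ccne1 2.86-fold, E2f1 2.58-fold and Ccp110 2.45-fold lower, and Wee1 was 2.58-fold higher. Several of these genes are also phase markers, and the list was drawn up with earlier results of these data known.

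Among 20 other F-box receptors 19 were measured in S and G1, 2 of them 2-fold higher and 1 2-fold lower, with a median of 0.03. That is 15.8% called, near the 17.2% of all genes. Ccnf, cyclin F, stood at 76.0 CPM in S against 12.4 CPM in G1, which is 6.10-fold higher, and at 99.1 CPM in G2/M, 7.96-fold above G1. It was thus opposite in sign to Skp2. Fbxo32, a receptor known from muscle wasting, stood at 30.9 CPM in S against 13.6 CPM in G1 and at 40.1 CPM in G2/M. Fbxo31 was lowest in S, at 6.98 CPM against 20.1 CPM in G1, and stood at 30.8 CPM in G2/M, 4.42-fold above S. It was the only F-box gene of the list past 2-fold there, or 5.26%, beside 13.7% of all genes. For G2/M over G1, 2 of 19 were 2-fold higher and 0 were 2-fold lower, or 10.5%, beside 19.8% of all genes.

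Of 23 other receptors and accessory subunits of Cul4 ligases 20 were measured in S and G1, with a median of 0.08, and 2 were 2-fold higher and 0 2-fold lower, or 10% called, beside 17.2% of all genes. Phip stood at 147 CPM in S against 63.4 CPM in G1 and Dcaf7 at 213 CPM against 104 CPM. In G2/M against S, Dcaf17 was 2.07-fold and Brwd3 2.20-fold higher, and in G2/M against G1, Dcaf17 was 2.84-fold and Dcaf7 2.19-fold higher. That is 10% called in each, beside 13.7% and 19.8% of all genes. Ddb2, the receptor for ultraviolet damage, had 25, 8 and 2 fragments in G1, S and G2/M, under the minimum.

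Of 21 receptors of Cul3, 20 were measured in S and G1, with a median of 0.08 and 15% called, beside 17.2% of all genes. Klhl22 was 2.55-fold and Klhl12 2.29-fold higher in S, and Klhl18 was 2.42-fold lower. Between G2/M and G1, Klhl22 was 2.90-fold and Rhobtb1 2.81-fold higher, while Klhl18 was 2.35-fold and Klhl42 2.18-fold lower. That is 20% called, near the 19.8% of all genes. For G2/M over S, Rhobtb1 alone was past 2-fold, at 33.0 CPM against 16.3 CPM, or 5% called, beside 13.7% of all genes. Keap1, the receptor of the oxidative stress response, stood at 53.9 CPM in S against 42.9 CPM in G1, and at 29.1 CPM in G2/M.

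Of 9 other cullins, RING proteins and adaptors 8 were measured and 0 passed 2-fold in any comparison. Over all genes 17.2% did in S over G1, 13.7% in G2/M over S and 19.8% in G2/M over G1. With 8 genes this count is no result about the list. Cul2 stood at 99.8 CPM in S against 53.4 CPM in G1, and Cks1b, the small protein that Skp2 needs to bind p27, at 82.1 CPM against 137 CPM. Cks1b then stood at 132 CPM in G2/M, where Skp2 was lowest. Skp1, the adaptor of SCF, stood at 228 CPM in S against 280 CPM in G1. Among 22 genes of NEDD8 conjugation, the COP9 signalosome and the CAND exchange factors 21 were measured. In each comparison 1 was past 2-fold, or 4.76%, beside 17.2%, 13.7% and 19.8% of all genes in the same order as above. In S against G1 it was Dcun1d3, at 41.5 CPM against 19.5 CPM, and in both comparisons with G2/M it was Dcun1d1, a factor that promotes NEDD8 attachment, at 62.4 CPM in G1 cells, 59.4 CPM in S cells and 25.7 CPM in G2/M cells. Nedd8 itself stood at 84.5 CPM in S against 127 CPM in G1. Of 8 ubiquitin-conjugating enzymes and partners Ube2r2 was 2.12-fold lower in S than in G1 and its relative Cdc34, the classical partner of SCF, stood at 59.1 CPM in S against 112 CPM in G1. None of these 8 was past 2-fold in either comparison with G2/M, and 12.5% were in S over G1. With 8 genes these counts too are no result about the list.

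**Figure D5:**
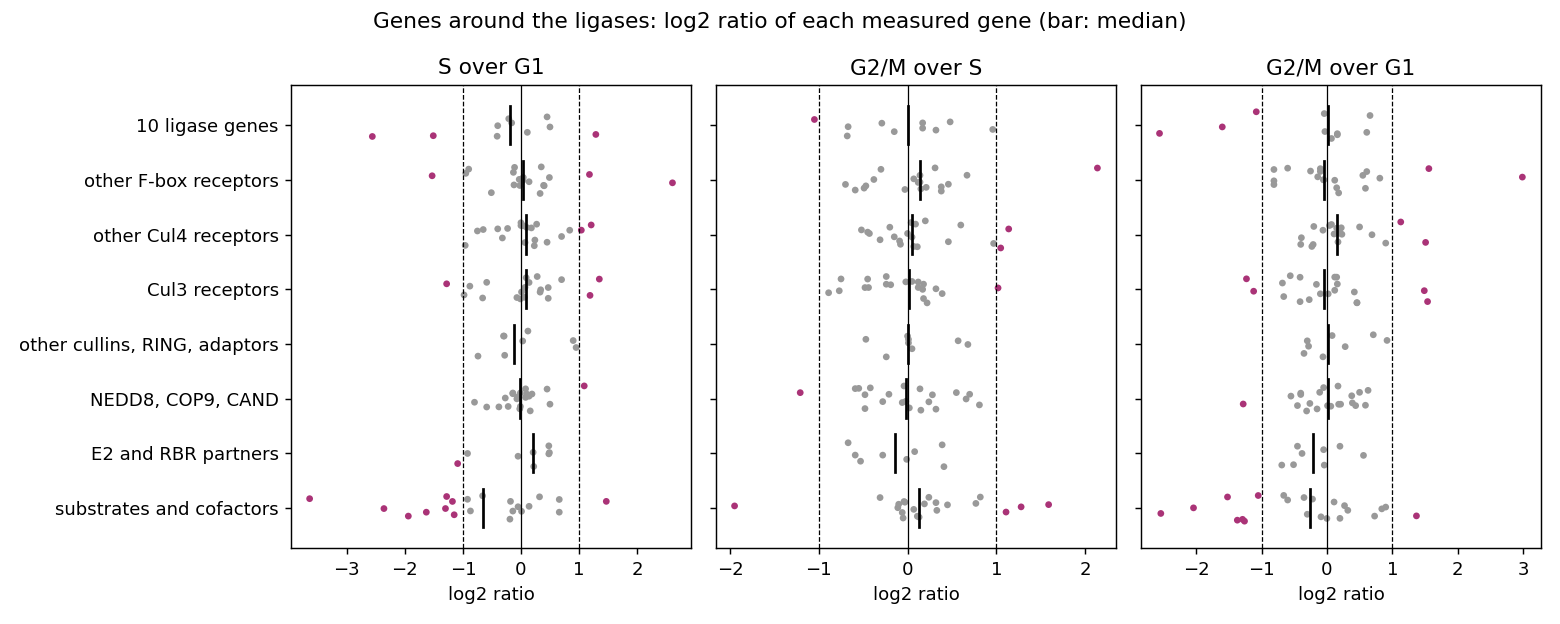
Log2 ratio (horizontal axes) of each measured gene in the 10 ligase genes and the 7 lists around them, for S over G1, G2/M over S and G2/M over G1. Bars are medians, dashed lines mark 2-fold and coloured points are genes called at 2-fold. Substrates and cofactors have the lowest median in S over G1, -0.66.

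Genes with the nearest profile were sought among 6693 genes whose mean level was 20 CPM or more, leaving out mitochondrial genes and gene models named only by a number, as the distance over 3 log2 levels centred on their mean. With 3 libraries such likeness is a description of these libraries. For Dtl the nearest were Snx33, Rfc3 and Cdca7, at distances of 0.23, 0.35 and 0.36, and 6 genes lay within 0.5. Rfc3 stood at 41.5 CPM in G1 cells, 9.21 CPM in S cells and 12.9 CPM in G2/M cells. For Wdr76 they were Snhg6, Usp37 and Ninl, at 0.21, 0.29 and 0.32, with 11 genes within 0.5. Usp37 stood at 107 CPM in G1 cells, 44.6 CPM in S cells and 24.0 CPM in G2/M cells. For Skp2 they were Tmem248, Bloc1s5 and Cox7a2, and 992 genes lay within 0.5, and for Fbxw7 they were Kctd9, Zyg11b and Ago3, with 531 genes within 0.5. The distance is not scaled to the range of a profile, so genes with large ratios have few neighbours within a fixed distance and these numbers are not compared between genes.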

How the data were processed

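Per the file headers, the authors used featureCounts to count read pairs over the exons of each gene (Ensembl, GRCm38), with no setting for strand, multiple mapping or overlapping genes; overlapping genes and close copies are therefore uncertain. The deposited counts are not normalized. Per the submitters' processing notes the tools include HISAT2 2.1.0, SAMtools 1.6 and featureCounts 1.5.0. No read trimming step is given. Identifiers matched symbols for 45143 of 46078 genes. ChIP-seq samples, 24 of 30, are not analysed here.

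The genes and lists were chosen with earlier results of these data known. The 6 columns were summed to 3 libraries of 32395232 (G1), 35822319 (S) and 35907974 (G2/M) fragments and scaled by TMM (edgeR 4.0.16, R 4.3.3) over genes with at least 10 fragments. Counts under 3 were set to 3 for ratios. Intervals are exact binomial (ratios) or Poisson (levels), from scipy 1.17.1; PCR copies are not independent molecules, so they cover counting error only. With 1 library per fraction the comparisons between fractions carry no test; a chi-square compared the columns of each pair. The text names all 10 genes, up to 6 called genes per list and comparison, and the 3 nearest profiles of each called gene; others in the lists were named after their values were seen. Ratio and fit code was tested on simulated data. Alternatives, including fits of columns as replicates with edgeR and DESeq2 1.42.0, are in the closing section.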

Additional observations from a re-analysis of the deposited data

How the results depend on the processing

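Scaling by library size alone or by DESeq2 size factors left the same 10-gene calls, 3, 1 and 3 in S against G1, G2/M against S and G2/M against G1. Of 120 recomputed ratios of the 10 genes 118 stayed inside their counting interval, none changed sign, and the largest shift was 0.08. These ratios reuse the fragments of the same libraries, so their small shifts say nothing about reproducibility between cultures. Using a single column per fraction gave 3, 1 to 2 and 3 calls. Over all genes there were 1509 to 1522 (17.2% to 17.3%), 1207 to 1230 (13.8% to 14.1%) and 1755 to 1759 (19.8% to 19.9%). Dtl reached 2-fold in G2/M against S with the first column alone. Without a CPM minimum all-gene counts were 4412, 4036 and 4517 (31.3%, 28.7% and 32.9% of genes tested), against 1512, 1202 and 1755 (17.2%, 13.7% and 19.8%). With a minimum of 50 CPM they were 359, 196 and 440 (7.66%, 4.21% and 9.28%). The minimum of 50 CPM took out Fbxw7 in S against G1 and left 0 calls among the 10 genes in G2/M against S. At 1.5-fold there were 3, 4 and 5 calls among the 10 genes and 3234, 2757 and 3520 over all genes (36.9%, 31.5% and 39.8%). With 10 genes such counts are no result about the group.

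Treating columns as replicates, edgeR's quasi-likelihood test at an FDR of 0.05 called 10, 10 and 9 of the 10 genes. It called 10574, 10444 and 10584 of all genes (84.7%, 83.6% and 84.7%). DESeq2 called 10, 10 and 8 of the 10 genes and 9712, 9392 and 9766 of all genes (77.8%, 75.2% and 78.2%). With the replicate block edgeR called 10, 10 and 9 of the 10 genes, and 10574, 10437 and 10574 of all genes (84.7%, 83.6% and 84.7%). Differences between columns 1 and 2 correlated at -0.0118 to 0.0208 between fractions. Because these differences are about the size of counting noise, the correlations cannot show whether the shared numbers pair the columns. These fits compare libraries, not cultures. Each of the 10 genes had at least 654 fragments per library, and counting error still left the side of the 2-fold line undecided for Dtl (0.83 to 1.08) and Wdr76 (-1.18 to -0.92) in G2/M against S and for Skp2 (-1.16 to -0.99) in G2/M against G1. Spread between cultures was not measured.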
